A study of Mus musculus with 3 samples.

Results

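The 7 genes described here belong to the pathway of the aryl hydrocarbon receptor (AHR). They were taken by name from a table of 27179 gene rows: the receptor Ahr, its DNA-binding partner Arnt, the feedback genes Ahrr and Tiparp, and the enzyme genes Cyp1a1, Cyp1b1 and Nqo1. All 7 had a row. Their RNA levels were measured in group 2 innate lymphoid cells (ILC2s), tissue-resident lymphocytes that lack antigen receptors and secrete type 2 cytokines, by RNA sequencing of 3 libraries. Per the series' design text, 3 wild-type mice were the source, of strain C57BL/6 per the labels. No treatment is labelled, and the sources used here do not give the tissue, age, sex or time of collection. The sort required CD45, CD90.2, CD127 and KLRG1 and left out cells with B220, CD11b, CD11c, NK1.1, CD8, CD5 or CD3. The series holds this 1 group, so levels can be described and set side by side within a library, but no condition can be compared with another.

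AHR is a transcription factor of the basic helix-loop-helix PAS family that waits in the cytosol with HSP90 and other chaperones. On binding a ligand, such as a dioxin, a dietary indole or a tryptophan metabolite, it enters the nucleus, pairs with ARNT and binds DNA at elements with a GCGTG core. Its classic targets are the cytochrome P450 genes Cyp1a1 and Cyp1b1, whose enzymes degrade ligands, together with Ahrr and Tiparp, whose products restrain the receptor. AHR is known to maintain ILC3s in the gut and to act in intestinal ILC2s. C57BL/6 mice carry a high-affinity form of the receptor.

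The DNA just before the start sites of the 4 target genes that ended at opposite ends of the expression range is shown here, so that it can be read beside their levels. The 250 bases before the start are from RefSeq (GRCm38.p6, which mm10 corresponds to), written 5′ to 3′ along the gene. For Cyp1a1 the start used lies inside the full span of the gene, which begins at 57687928. Capitals mark GCGTG, or CACGC where the core lies on the opposite strand. Tiparp was abundant, Ahrr was low and uneven, and Cyp1a1 and Cyp1b1 were not seen.
Tiparp (chr3:65528197-65528446, plus strand): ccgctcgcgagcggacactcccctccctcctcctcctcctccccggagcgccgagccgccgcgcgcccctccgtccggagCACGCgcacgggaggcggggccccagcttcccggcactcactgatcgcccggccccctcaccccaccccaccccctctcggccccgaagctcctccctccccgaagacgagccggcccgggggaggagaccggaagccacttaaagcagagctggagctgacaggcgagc
Ahrr (chr13:74292332-74292581, minus strand): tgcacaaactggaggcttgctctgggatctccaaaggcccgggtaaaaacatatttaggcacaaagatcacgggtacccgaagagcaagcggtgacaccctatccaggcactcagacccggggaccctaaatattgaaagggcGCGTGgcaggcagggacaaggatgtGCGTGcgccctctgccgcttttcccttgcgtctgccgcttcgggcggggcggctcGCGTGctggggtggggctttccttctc
Cyp1a1 (chr9:57697363-57697612, plus strand): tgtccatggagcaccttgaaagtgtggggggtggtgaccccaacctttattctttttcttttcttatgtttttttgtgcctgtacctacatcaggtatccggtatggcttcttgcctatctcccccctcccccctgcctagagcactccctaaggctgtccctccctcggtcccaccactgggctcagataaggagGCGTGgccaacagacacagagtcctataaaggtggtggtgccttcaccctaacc
Cyp1b1 (chr17:79715062-79715311, minus strand): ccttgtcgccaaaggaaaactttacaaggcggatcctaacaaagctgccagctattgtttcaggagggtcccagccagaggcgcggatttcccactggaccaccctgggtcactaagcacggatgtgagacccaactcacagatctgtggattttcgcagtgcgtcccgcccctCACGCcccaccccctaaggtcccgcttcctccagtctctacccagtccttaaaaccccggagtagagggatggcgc
The core occurred 3 times before Ahrr and 1 time before each of the other 3. Its first base lay 170 bases before the start of Tiparp, 54 before that of Cyp1a1, 76 before that of Cyp1b1, and 107, 82 and 27 before that of Ahrr. Of the 6 members in the promoter table, 5 held the core on either strand within these 250 bases, against 28.2% of all 32851 promoters of the same length. The fifth was Arnt, and Nqo1 held none. The longer element TNGCGTG, which contains the core, was found for 1 member, Ahrr, and in 4.10% of all promoters. The antioxidant response element TGACNNNGC, bound by NRF2, was found for 1 member, Arnt, and in 10.2% of all promoters. A match is a description of the letters, and elements farther upstream lie outside this window.

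The 3 libraries held 17819551 to 26374248 counts. Levels are given as CPM, counts per 1000000 counts of the library after TMM scaling (trimmed mean of M values). A count of 0 allows up to 3 counts, which is 0.115 to 0.171 CPM in these libraries. Intervals and limits cover counting error only. All 15 ILC2 markers examined were detected, beside 31.1% of all gene rows. Among the 15, Ptprc (CD45), Thy1 (CD90.2), Il7r (CD127) and Klrg1 encode proteins that the sort required. Detection of those genes largely follows from the sort and is no separate check of identity. Detected here means at least 1 CPM in each mouse. Of markers of other cells, 3 of 6 ILC3 genes were detected (summed level 280 to 457 CPM, with Ccr6 at 0), 2 of 7 NK cell and ILC1 genes (8.47 to 244), 3 of 8 T cell genes (20.8 to 25.4), 4 of 7 B and plasma cell genes (5699 to 18755, of which Jchain alone made up 5527 to 18473, with Ms4a1 and Pax5 among those at 0), 3 of 9 myeloid genes (29.5 to 47.3, with Adgre1, S100a8 and S100a9 at 0), 3 of 6 mast cell and basophil genes (36.0 to 61.1, with Ms4a2, Tpsb2 and Mcpt1 at 0), 1 of 8 epithelial genes (9.90 to 29.5, with Cdh1, Alpi and Muc2 at 0) and 2 of 7 stromal and endothelial genes (22.4 to 39.4, with Cdh5 at 0). The part of such cells in the levels below was not tested. In sorted bulk cells, fewer cells with a transcript and less of it per cell cannot be told apart.

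ILC2s carried transcripts of the receptor, its partner, 1 abundant feedback gene and 1 target enzyme, and no counts were seen for the CYP1 enzymes. Of the 7 members 4 were detected, Ahr, Arnt, Tiparp and Nqo1, beside 31.1% of all gene rows. Cyp1a1 and Cyp1b1 had 0 counts in every library, as had 44.5% of all rows. Ahrr had counts in 2 of 3 mice. The count was also 4 at minima of 0.5 and 5 CPM.

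**Figure D1:**
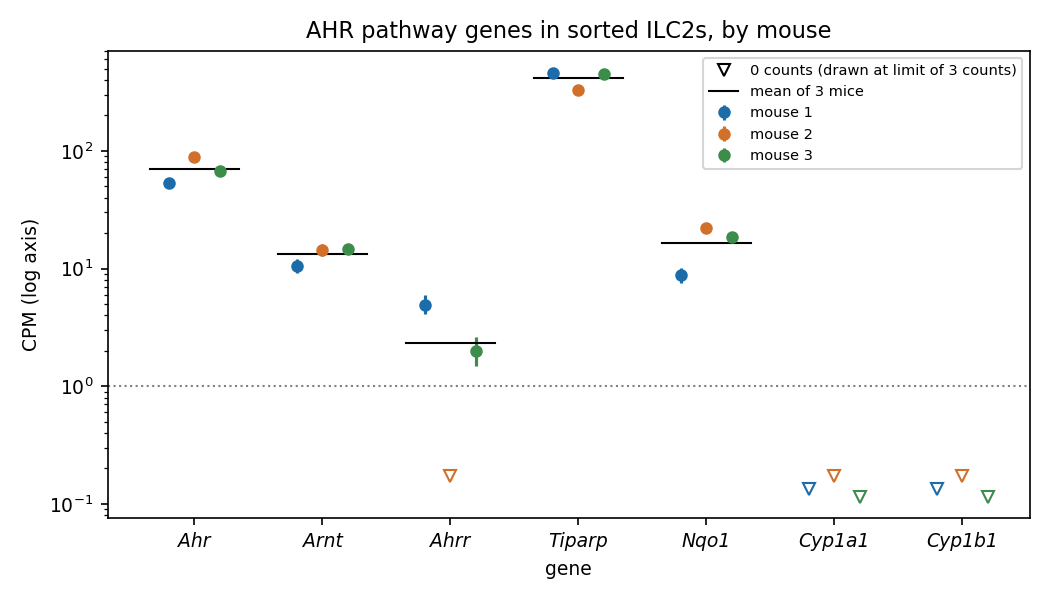
Level of each member in each mouse, in CPM on a log axis, with 95% exact binomial intervals (counting error), the mean of 3 mice as a line and the 1 CPM minimum as a dotted line. Open triangles are libraries with 0 counts, drawn at the limit of 3 counts. Tiparp lies between 331 and 460 CPM and Ahr between 53.8 and 89.2, while Cyp1a1 and Cyp1b1 have no count in any mouse.

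Ahr, the receptor, lies on chromosome 12 (35497979 to 35534989, GRCm38.p6). It had 1220, 1568 and 1749 counts in mice 1, 2 and 3, or 53.8, 89.2 and 67.1 CPM. The mean was 70.0 ± 17.9 CPM (SD, n = 3). It was highest in mouse 2 and lowest in mouse 1, a 1.66-fold span. The 95% exact binomial intervals of the mice, 50.8 to 56.9, 84.8 to 93.7 and 63.97 to 70.3 CPM, did not overlap, so the mice differed by more than counting error. Divided by the summed exon length of 6.16 kb, the level was 11.4 ± 2.90 CPM per kb, above that of 64.5% of detected genes. The antisense gene Gm48236, not analysed here, overlaps its exons, and the library kit does not mark strand.

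Arnt, whose product completes the DNA-binding dimer, lies on chromosome 3 (95434367 to 95497240). It had 10.5, 14.4 and 14.6 CPM in mice 1, 2 and 3, with a mean of 13.2 ± 2.299 (SD, n = 3). Mice 2 and 3 were alike, with overlapping intervals of 12.7 to 16.3 and 13.2 to 16.2 CPM, and mouse 1 was lower. Per kb its level was 1.65 ± 0.287, above that of 22.4% of detected genes.

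Per kb, Ahr exceeded Arnt in each of the 3 libraries. The log2 ratio was 2.68, 2.97 and 2.53 in mice 1, 2 and 3, with a mean of 2.73 ± 0.22 (SD, n = 3), or 6.62-fold. The exact two-sided sign-flip test gave p = 0.25, the smallest that 3 libraries allow, so no ratio within a library can pass 0.05. Arnt has much longer summed exons than its longest transcript, and with the longest transcript as the length the ratio was 3.97-fold. The direction was the same in either case.

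**Figure D2:**
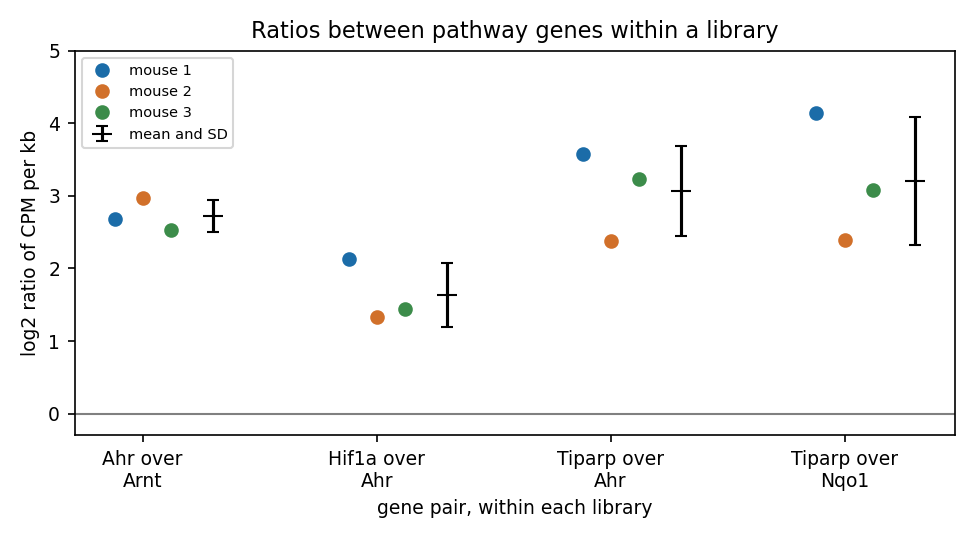
Log2 ratio of CPM per kb for 4 gene pairs in every library, beside which a bar gives their mean and SD. All points lie above 0, and both Tiparp ratios are lowest in mouse 2.

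ARNT is shared with the hypoxia factors HIF-1α (Hif1a) and HIF-2α (Epas1), which bind it in the same way as AHR. Both genes were more abundant than Ahr. Hif1a had 228, 215 and 175 CPM in mice 1, 2 and 3, and Epas1 had 321, 425 and 255. Per kb, Epas1 reached 59.7 ± 15.3 and Hif1a 34.9 ± 4.62 (SD, n = 3). Hif1a exceeded Ahr in 3 of 3 libraries by 1.63 ± 0.44 on the log2 scale, or 3.10-fold, with an exact sign-flip p of 0.25. Arnt2, the paralogue that can replace ARNT in neurons, had 0, 0 and 2 counts, and the exact p for Arnt over Arnt2 was also 0.25. Of the 13 other bHLH-PAS genes examined 4 were detected (30.8%, beside 31.1% of all rows), the 2 named hypoxia genes and the clock genes Arntl and Clock. Arntl2, Npas1, Npas3, Npas4, Hif3a, Sim1 and Sim2, 7 of the 13, had 0 counts in every mouse, beside 44.5% of all rows.

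Tiparp encodes PARP7, which attaches single ADP-ribose units to AHR and dampens its activity. It lies on chromosome 3 (65528447 to 65555518) and was by far the most abundant member. It had 10421, 5815 and 11714 counts, or 460, 331 and 449 CPM, in mice 1, 2 and 3. The mean was 413 ± 71.7 CPM (SD, n = 3), and mouse 2 was lowest, with mice 1 and 3 close together. Per kb it reached 94.8 ± 16.4, above 91.5% of detected genes. An antisense gene that overlaps its exons, 4931440P22Rik, had 6.26, 8.70 and 4.30 CPM. The library kit does not mark strand, so reads of the pair cannot be told apart where they overlap.

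Per kb, Tiparp exceeded Ahr in 3 of 3 libraries. The log2 ratio was 3.58, 2.38 and 3.23 in mice 1, 2 and 3, with a mean of 3.07 ± 0.62 (SD, n = 3), or 8.38-fold, at an exact sign-flip p of 0.25. The ratio was lowest in mouse 2, where Ahr was highest and Tiparp lowest. Immediate early and heat shock genes can rise during cell isolation. Of 8 such genes 7 were detected (87.5%, beside 31.1% of all rows). The summed level of the list was 1165, 714 and 1629 CPM in mice 1, 2 and 3. The sum was carried mostly by Fos and Dusp1 and was lowest in mouse 2, as Tiparp was. Of the 7 detected genes, 3 were lowest and 2 were highest in that mouse. Their part in the Tiparp level was not tested. Among all detected genes, mouse 2 was the lowest of the 3 for 37.1%.

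Ahrr encodes the AHR repressor, which competes for ARNT and is itself an AHR target. It lies on chromosome 13 (74211118 to 74292331). It had 112, 0 and 52 counts in mice 1, 2 and 3, or 4.94, 0 and 1.99 CPM. Counting error does not cover this spread: the upper 95% exact binomial bound in mouse 2 was 0.210 CPM, while the lower bounds in mice 1 and 3 were 4.07 and 1.49. The mean of 2.31 ± 2.49 CPM (SD, n = 3) rested on mouse 1, and without it was 0.997. Of the 27179 gene rows, 15092 had a count in some library. Of these, 166 had 0 counts in mouse 2 and at least 1 CPM in both other mice, against 218 for mouse 1 and 38 for mouse 3.

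Ahr and Tiparp both exceeded Ahrr in every library. Ahr was 16.7-fold higher per kb in mouse 1, 51.5-fold in mouse 3 and at least 801-fold in mouse 2, where Ahrr was set to the limit of 3 counts. With the longest transcripts as lengths these were 10.01, 30.9 and at least 480. Tiparp was 202-fold and 488-fold higher than Ahrr in mice 1 and 3 and at least 4199-fold in mouse 2, or 113, 274 and at least 2358 with the longest transcripts. Both pairs had a p of 0.25 in the exact sign-flip test.

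Cyp1a1 (chromosome 9, 57687928 to 57703824) and Cyp1b1 (chromosome 17, 79706940 to 79715061) encode the P450 enzymes most used as a readout of AHR activity. Each had 0 counts in all 3 libraries, for which the limit of 3 counts is 0.132, 0.171 and 0.115 CPM in mice 1, 2 and 3 and the upper 95% exact binomial bound 0.163, 0.210 and 0.141. Tiparp was at least 4655-fold, 2597-fold and 5233-fold higher per kb than Cyp1b1 in mice 1, 2 and 3, with Cyp1b1 set to 3 counts in each library, at an exact sign-flip p of 0.25. Cyp1a1 and Cyp1b1 could not be compared with each other.

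Nqo1, a quinone reductase controlled by AHR and by the oxidative stress factor NRF2, lies on chromosome 8 (107388225 to 107403205). It had 199, 388 and 482 counts, or 8.78, 22.1 and 18.5 CPM, in mice 1, 2 and 3. The mean was 16.4 ± 6.87 CPM (SD, n = 3). Mouse 1 was lowest, as for Ahr, and its interval of 7.60 to 10.1 CPM did not reach those of mice 2 (19.9 to 24.4) and 3 (16.9 to 20.2). Tiparp exceeded Nqo1 per kb by 4.14, 2.39 and 3.08 on the log2 scale, a mean of 3.20 ± 0.89 (SD, n = 3) or 9.21-fold, with an exact sign-flip p of 0.25. Undivided by length, that ratio was 25.8-fold, because Nqo1 has the shortest exons of the members, 1.55 kb.

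Ordered by level per kb, Tiparp (94.8) came first, then Ahr (11.4), Nqo1 (10.6), Arnt (1.65) and Ahrr (0.245), with Cyp1a1 and Cyp1b1 at 0. Ahr and Nqo1 did not differ beyond their spread. Ahr had 8.73, 14.5 and 10.9 CPM per kb in mice 1, 2 and 3 and Nqo1 5.65, 14.2 and 11.9, so their order turned in mouse 3. The other steps of the order were the same in all 3 mice, except that Ahrr was also at 0 in mouse 2. With the longest transcripts as lengths the order of the means was the same, with Arnt at 3.05 and Ahrr at 0.453.

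**Figure D3:**
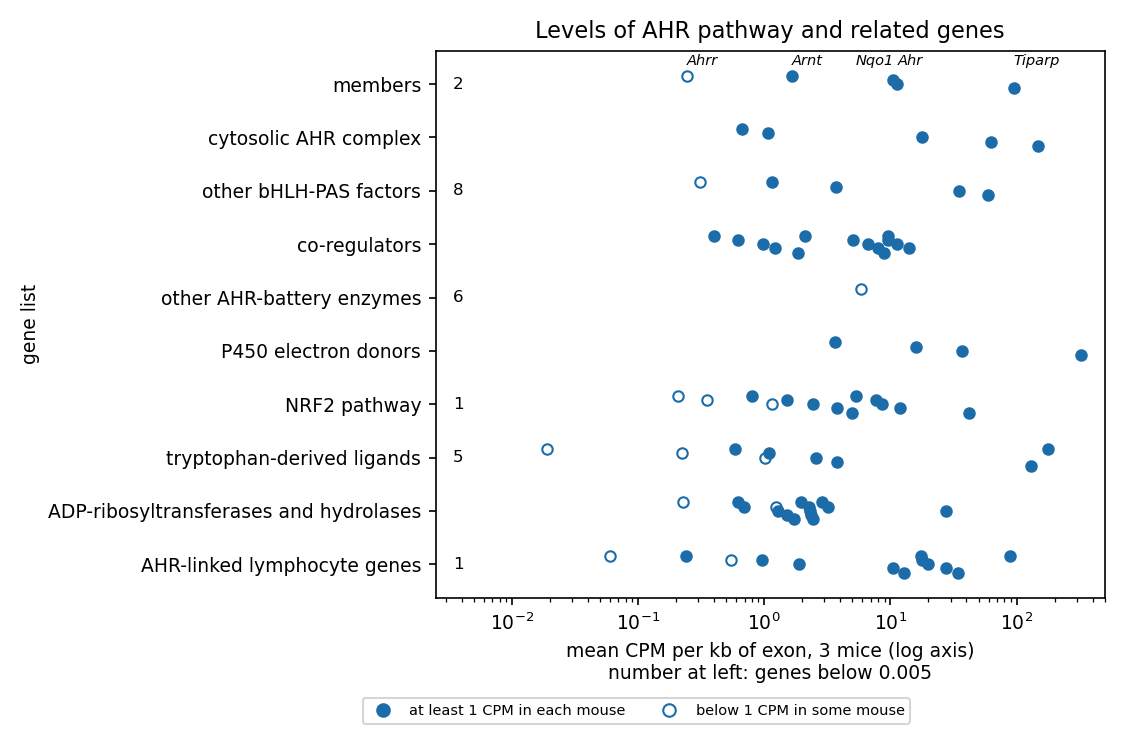
Mean level of each gene in CPM per kb of exon on a log axis, by gene list, with filled points for genes at 1 CPM or more in each mouse and open points for genes below that in some mouse. The number at the left counts genes below 0.005. Tiparp stands highest among the members, and 6 of 7 other AHR-battery enzymes have no counts.

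Other genes of the pathway were examined in 9 lists of 100 genes in all, of which 67 were detected, beside 31.1% of all rows. In the cytosolic complex all 5 genes were detected. Hsp90ab1, an HSP90 chaperone, had 447 ± 78.7 CPM (SD, n = 3), and Hsp90aa1, its stress-inducible relative, had 70.5 ± 12.8. The co-chaperone p23 (Ptges3) and the kinase gene Src were low, at 2.40 ± 0.998 and 2.91 ± 0.211 CPM. All 14 co-regulators were detected, with Nrip1 (160 ± 46.1) and Ncor1 (122 ± 27.8) the highest in CPM. The acetyltransferase genes Ep300 and Crebbp had 8.92 ± 4.29 and 13.2 ± 10.3 CPM.

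The remaining AHR-induced xenobiotic enzymes had no counts or uneven counts, like the CYP1 genes and Ahrr. None of 7 was detected in all mice, beside 31.1% of all rows. Cyp1a2, Cyp2s1, Ugt1a6a, Ugt1a6b, Gsta1 and Gsta2, 6 of the 7, had 0 counts in each library, beside 44.5% of all rows. The Ugt1a genes share exons with each other, and the treatment of shared reads is not stated in the sources used here. Aldh3a1, an aldehyde dehydrogenase, had 388, 0 and 451 counts, or 17.1, 0 and 17.3 CPM, in mice 1, 2 and 3. Mouse 2 was thus at 0 for Aldh3a1 and Ahrr, as it was for the bHLH-PAS gene Npas2 (27, 0 and 86 counts in mice 1, 2 and 3). Out of 27179 gene rows, Aldh3a1 was 1 of 27 at 0 in mouse 2 with at least 5 CPM in both other mice. The electron donors that P450 enzymes need were all detected. Cytochrome P450 reductase (Por) had 14.5 ± 2.92 CPM, Cyb5a 1012 ± 275 and Cyb5b 163 ± 22.6 (SD, n = 3).

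The NRF2 list, which shares control of Nqo1, was detected for 10 of 14 genes (71.4%, beside 31.1% of all rows). Nfe2l2, which encodes NRF2, had 159 ± 50.3 CPM and was highest in mouse 1 (215, 119 and 143). Nqo1 was lowest there. Keap1, which encodes the inhibitor of NRF2, stayed below 1 CPM on average (0.980 ± 0.846). The glutathione synthesis gene Gclc had 32.3 ± 5.28 and the small MAF gene Maff 31.2 ± 1.70 CPM. Hmox1, the haem oxygenase gene, had 0, 3.64 and 2.38 CPM in mice 1, 2 and 3, and so was at 0 in mouse 1.

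Of the 14 genes that use, transport or turn tryptophan into AHR ligands 6 were detected (42.9%, beside 31.1% of all rows). Ido1, Ido2, Kynu, Aadat and Il4i1, enzymes of the kynurenine and indole-pyruvate routes, had 0 counts in each library. The aminotransferase genes Kyat1 and Kyat3 of the same routes were detected at 1.71 ± 0.695 and 10.4 ± 3.49 CPM. Exons of Il4i1 overlap those of Nup62 on the same strand, which had 3.40, 2.50 and 1.88 CPM in mice 1, 2 and 3. How shared reads were treated is not stated in the sources used here, which limits the reading of 0 counts for Il4i1. Kmo, kynurenine monooxygenase, had 17.99 ± 3.97 CPM. Tph1, which starts serotonin synthesis from tryptophan, reached 802 ± 195 CPM (765, 628 and 1013 in mice 1, 2 and 3). The amino acid transporter pair that also carries kynurenine was uneven in its parts, with the heavy chain Slc3a2 at 628 ± 239 CPM and the light chain Slc7a5 at 9.58 ± 3.23 (SD, n = 3).

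Among ADP-ribosyltransferases and hydrolases 13 of 15 were detected (86.7%, beside 31.1% of all rows). Tiparp was higher in CPM per kb than each of them. The highest per kb were Parp2 (27.5 ± 7.18) and Parp4 (3.22 ± 1.04), and in undivided CPM Parp2 (99.7 ± 26.1) and Parp14 (26.9 ± 16.5). Macrod1, a hydrolase that can remove the ADP-ribose placed by PARP7, had 1.51 ± 0.771 CPM and was below 1 in mouse 2.

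Lymphocyte genes known to be linked to AHR were detected for 11 of 14 (78.6%, beside 31.1% of all rows). Ikzf3, which encodes the Ikaros family factor Aiolos, had 335, 296 and 274 CPM in mice 1, 2 and 3. Of the ILC3 genes, the IL-23 receptor gene Il23r had 0.0863 ± 0.0853 CPM (SD, n = 3), and Ccr6 had 0 counts. Il22 and Il17a, AHR-linked cytokine genes, had 19.7 ± 12.1 and 15.1 ± 9.99 CPM. Kit had 244 ± 103 CPM, and the IL-33 receptor gene Il1rl1, which AHR is known to restrain in intestinal ILC2s, had 136 ± 52.9. Of the 11 detected genes 4 were highest in mouse 1, where Ahr was lowest, 3 in mouse 2 and 4 in mouse 3. Gpr15 had 0 counts, and Il10 had 0.0782 ± 0.0348 CPM.

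Variation between the mice was then tested for every gene that passed a filter on low counts (9175 genes). The edgeR quasi-dispersion of each gene was set against the trend for its abundance, by a one-sided F test for higher values with p-values adjusted by Benjamini-Hochberg. Of all tested genes 0.185% were more variable at an adjusted p below 0.05, and 4.4% at an unadjusted p below 0.05. Of the members 4 passed the filter. None of these 4 was more variable than the trend by edgeR, at the adjusted or the unadjusted threshold. DESeq2 marked 0 of them as dispersion outliers, and limma called 0. The log2 ratio to the trend was 0.07 for Ahr, -0.06 for Tiparp, 0.15 for Nqo1 and -2.79 for Arnt, beside a median of -0.41 over all tested genes. The edgeR adjusted p was 0.989 for Ahr, Tiparp and Nqo1 and 0.998 for Arnt. Over the alternatives, the adjusted p of the members tested ranged from 0.847 to 0.9998. With 3 libraries this does not show that their levels were equal. On simulated data the test recovered 7 of 100 genes raised 8-fold in a single library, and 75 of 100 raised 64-fold.

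**Figure D4:**
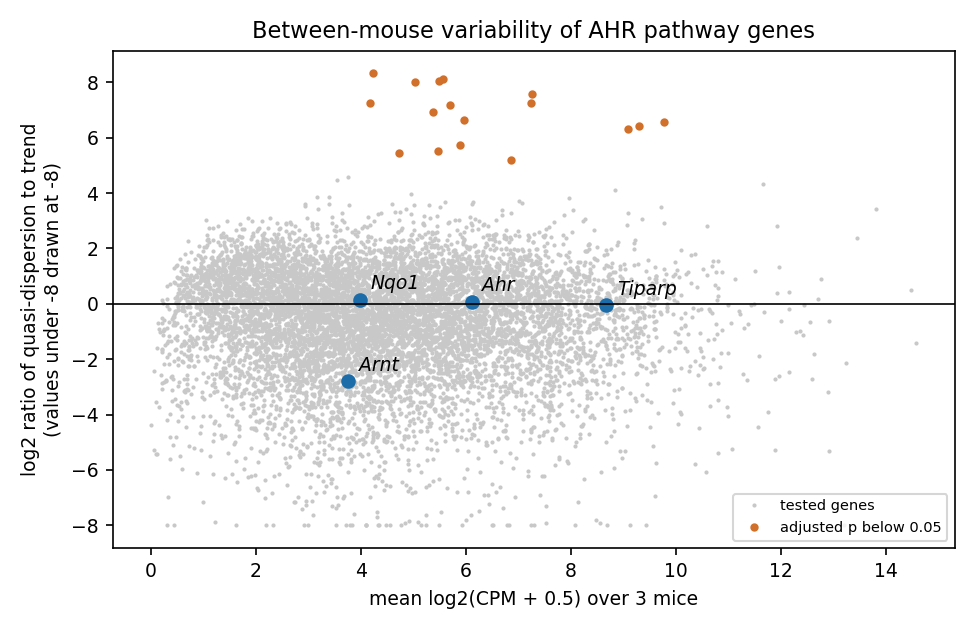
Between-mouse variability of 9175 tested genes, as the log2 ratio of quasi-dispersion to its trend against the mean log2(CPM + 0.5), with the members in blue and the genes at an adjusted p below 0.05 in orange. Ahr, Tiparp and Nqo1 lie near 0 and Arnt at -2.79, all well under the genes that passed.

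Ahrr, with a 0 in mouse 2, did not pass the filter. Without the filter its edgeR adjusted p was 0.847, and that of Aldh3a1 was also 0.847. Of the 100 pathway genes 69 were tested, and none passed at the adjusted threshold by edgeR. At an unadjusted p below 0.05 there were 3 of 69, near the 4.4% of all tested genes. They are named here after their values were seen: Cyb5r3, a reductase that feeds cytochrome b5 (53.6, 29.9 and 123 CPM), Slc3a2 (652, 378 and 853) and Kit (362, 199 and 172).

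The genes with levels most like those of a member were found by the Euclidean distance of log2(CPM + 0.5) over the 3 libraries. For Ahr they were Dnajc7 (0.126), Zmat2 (0.141) and Rida (0.158), and 128 tested genes lay within 0.5. For Arnt they were Josd1 (0.116) and Krt83 (0.128), among others, with 120 genes within 0.5. For Tiparp they were Cdk11b (0.0961), Serinc1 (0.137) and Psmd8 (0.186), with 50 within 0.5. With that many neighbours over 3 libraries, likeness singles out no gene.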

How the data were processed

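RNA of sorted ILC2s was sequenced in 3 libraries. Per the labels' protocols, a Clontech SMARTer kit for very small inputs amplified the cDNA. The values deposited by the authors are unnormalized counts of reads for each Entrez gene. The tools named, per the submitters' processing notes, are STAR 2.3.0 and CASAVA 1.8.2, with build mm10. The counting program is not given in the sources used here. Libraries are called mouse 1, 2 and 3 after the number in their titles, which name no mouse. Of 27179 rows, 25275 were matched by ID to RefSeq names.

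CPM used TMM factors of 1.03, 0.987 and 0.989 (edgeR 4.0.16, R 4.3.3). Lengths are summed GENCODE M21 exons. Ratios were taken of (CPM + 0.5) per kb, and 8 of 9 gene pairs could be compared, with an adjusted p of 0.25 for each. Variability was fitted with an intercept only on genes passing filterByExpr (minimum count 10). A check on simulated data recovered 7 of 100 changes of 8-fold and 75 of 100 of 64-fold. Alternatives used DESeq2 1.42.0, limma 3.58.1, other minima, pseudocounts, lengths and filters, and left out each mouse.

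The members and gene lists were chosen with earlier results of these data known. Named genes are the members, the pair genes, the 2 highest and the all-zero genes of each list, genes past the threshold, and the 3 nearest profiles of Ahr, Arnt and Tiparp. Other list genes named were chosen after their values were seen. RefSeq start sites were checked against GENCODE transcripts for the 6 members in the promoter table. Some genes that this rule names are not reported here.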

Additional observations from a re-analysis of the deposited data

How the results depend on the processing

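No paired analysis was possible because only 1 group exists. Other pseudocounts and other lengths kept the direction of the 4 ratios reported. Leaving out a mouse could not change it, since each ratio lay above 0 in every library. DESeq2 size factors and unscaled library sizes kept the levels of the 5 members with counts within 1 SD. Leaving out a mouse is no test of this, since with 3 values it cannot move a mean by 1 SD. The level of Ahrr without each mouse was 0.997 to 3.47 CPM, and without mouse 2 Ahrr was detected as well, 5 of 7 members in place of 4. Dividing by the longest transcript lowered Ahr over Arnt from 6.62-fold to 3.97-fold. The count of genes more variable than the trend was 17, and it was 27 when a mean of at least 5 CPM was required, 0 with a robust prior (394 at an unadjusted p below 0.05) and 13 to 31 without each mouse, highest without mouse 1. The cause was not tested. No member passed in any of these settings. By depth alone, statements on Cyp1a1, Cyp1b1 and other genes at 0 are limited to levels above 0.115 to 0.171 CPM. Yet of 27179 gene rows, 33, 27 and 3 were at 0 in mouse 1, 2 or 3 with at least 5 CPM in both other mice. A 0 can thus reflect more than counting error, and whether it lay in the cells or in the library was not tested.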
